A study of Mus musculus with 28 samples.

Results

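The response of wild-type non-pathogenic Th17 cells (Th17n) to DFMO was examined in 8 of the 28 RNA-seq libraries of the series. All genes that passed a filter on low counts were tested. The comparison set the 4 libraries of cultures with 100 µM DFMO (Th17n DFMO WT) against the 4 without it (Th17n ctrl WT), and the animal numbers in the labels paired each DFMO library with the ctrl library of the same mouse. Naive CD4 T cells had been sorted from the spleens of C57BL/6 mice and stimulated on plates coated with antibodies to CD3 and CD28 at 1 µg/ml each. All 8 cultures contained 25 ng/ml of IL-6 together with 2 ng/ml of TGF-beta 1, and live cells were sorted at 68 h. Each library holds cells of 1 animal and all were cultured outside the body, so the surroundings of a T cell in tissue were absent. The remaining 20 libraries came from wild-type induced regulatory cultures (iTreg, the same TGF-beta 1 without IL-6) and from mice whose floxed JMJD3 gene, Kdm6b, was deleted by a Cre recombinase under CD4 control (KO). They entered the filter on low counts and the fit. Beyond that they are used below only to test where the wild-type Th17n response differed. The design text names the effect of DFMO on Th17 cells of control and JMJD3-deficient mice as the question of the study.

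Putrescine, spermidine and spermine are small, positively charged molecules that bind RNA, DNA and ribosomes. Ornithine decarboxylase (gene Odc1) makes putrescine from ornithine, and DFMO blocks that enzyme irreversibly. Spermidine also donates the group that turns a lysine of the translation factor eIF5A into hypusine. Proliferating T cells raise polyamine synthesis on activation, and Th17 cells are known for IL-17A and IL-17F, whereas FOXP3 marks regulatory T cells.

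The 8 libraries held 3590879 to 4759290 estimated counts and 13311 to 14518 genes with at least 1 count. Of 20891 genes in the table, 10985 passed the filter on low counts and were tested. All 8 matched markers of CD4 T cells were detected, with a summed level of 2055 to 2191 TPM in ctrl and 1898 to 2134 TPM in DFMO. That sum held opposite shifts. Cd4 was at 130 to 161 TPM in ctrl and 81.3 to 93.7 TPM in DFMO, and Cd3d at 244 to 265 and 149 to 171 TPM. Lat was higher in DFMO, at 345 to 385 and 518 to 568 TPM. The 6 Th17 markers summed to 726 to 1548 TPM in ctrl and 379 to 888 TPM in DFMO. Most of this was Il17f, at 590 to 1207 TPM in ctrl and 259 to 679 TPM in DFMO. Ccr6 was not lower, at 40.8 to 64.3 TPM in ctrl and 59.3 to 75.2 TPM in DFMO. Markers of other cell types were low: B cell genes summed to 9.08 to 11.1 TPM in ctrl and 5.57 to 8.20 TPM in DFMO, NK cell genes to 4.75 to 35.0 and 2.93 to 5.92 TPM, and myeloid genes to 7.14 to 9.67 and 1.61 to 3.69 TPM. Some single markers, among them Lyz2, S100a9, Klra4, Clec9a, Hba-a1, Hbb-bs, Mcpt8 and Cpa3, were listed at 0 in all 8 libraries. Others on the same lists were detected. Nkg7 (NK cells) reached 33.2 TPM in ctrl and 5.31 TPM in DFMO. Cd68 (myeloid cells) was at 6.42 to 8.37 and 1.25 to 2.67 TPM. Kit (mast cells) and Alas2 (erythroid cells) reached 3.91 and 3.67 TPM in ctrl. The CD8 T cell gene Cd8b1 was at 8.99 to 13.9 TPM in ctrl and 4.59 to 6.82 TPM in DFMO. These are bulk samples, so fewer cells of a state and less RNA per cell cannot be told apart.

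DFMO changed the level of a large share of the genes tested. At an adjusted p under 0.05 (edgeR's quasi-likelihood test with the animal as a block, Benjamini-Hochberg over all genes tested), 5993 of 10985 genes were called, which is 54.6%. Of these 2703 rose, 24.6% of the genes tested, and 3290 fell, 29.9%. The total depended on the fit: 4823 of the 10985 were called on log2(TPM + 1), and 5435 of 10934 without ctrl replicate 3. The excess of decreases was small, with 45.1% of the calls higher and 44.9% to 51.4% over the alternatives. In the fit of the compared groups alone, where 10234 genes passed the filter, 3153 rose and 3139 fell. Many changes were small: 2290 of the called genes differed by less than 1.5-fold, 1906 by 1.5- to 2-fold, 1390 by 2- to 4-fold and 407 by 4-fold or more. Large changes were mostly decreases, with 307 of the 407 genes lower in DFMO and 100 higher. In 5755 of the called genes all 4 animals moved the same way, but the calls were made on these same libraries, so this is not separate support. The 4 DFMO values and the 4 ctrl values did not overlap for 5175 of all genes tested, or 47.1%. The median log2 fold change over all genes was -0.07.

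The balance of rises and falls differed with the level of a gene. Genes were ranked by mean level and cut into 10 bins of 1098 or 1099. In bin 1 (mean of 0.0 to 2.86 CPM, CPM being a count scaled to library size), 6.01% rose and 19.6% fell. The filter took in all 28 libraries, so this bin holds genes with little or no count in these 8. In bin 9 (88.8 to 162 CPM) 40.0% rose and 30.4% fell, and in bin 10 the shares were 37.4% and 33.3%. Calls were spread over all chromosomes, from 50.3% of the genes tested on chromosome 9 to 59.4% on chromosome 10 among the autosomes. On the X chromosome 17.8% of 337 genes rose and 35.3% fell. A first principal component held 65.0% of the variance of the 8 libraries and the second 8.90%. Spearman correlations between libraries of 1 group were 0.981 to 0.987, above the 0.917 to 0.936 between groups.

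**Figure D1:**
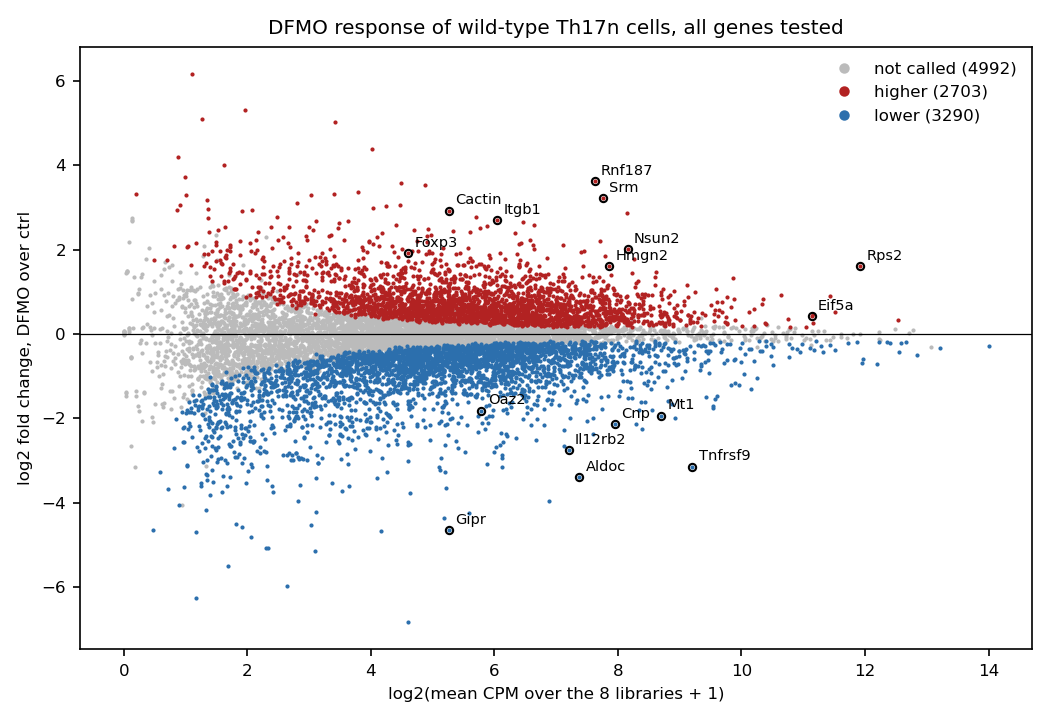
Log2 fold change (DFMO over ctrl, vertical) against mean level over the 8 libraries (log2 of CPM + 1, horizontal) for the 10985 genes tested, coloured by call: 2703 higher, 3290 lower and 4992 not called. Circled genes are described in the text, and the points far from the zero line lie more often below it, as 307 of the 407 called genes past 4-fold were lower.

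The genes were read in 73 lists covering 2387 different tested genes. For each list described, the number of members that rose or fell is to be read against the shares of all genes tested (24.6% and 29.9%). The median log2 fold change is given for many lists. The lists with the highest medians were those of histones, ribosome assembly and DNA replication, and glycolysis had one of the lowest (-0.71, and -0.70 to -0.55 over the alternative fits). The medians of chemokines (-0.72) and interferon-stimulated genes (-0.63) were as low, but they ran to -0.01 and -0.20 in a fit of unfiltered TPM values.

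**Figure D2:**
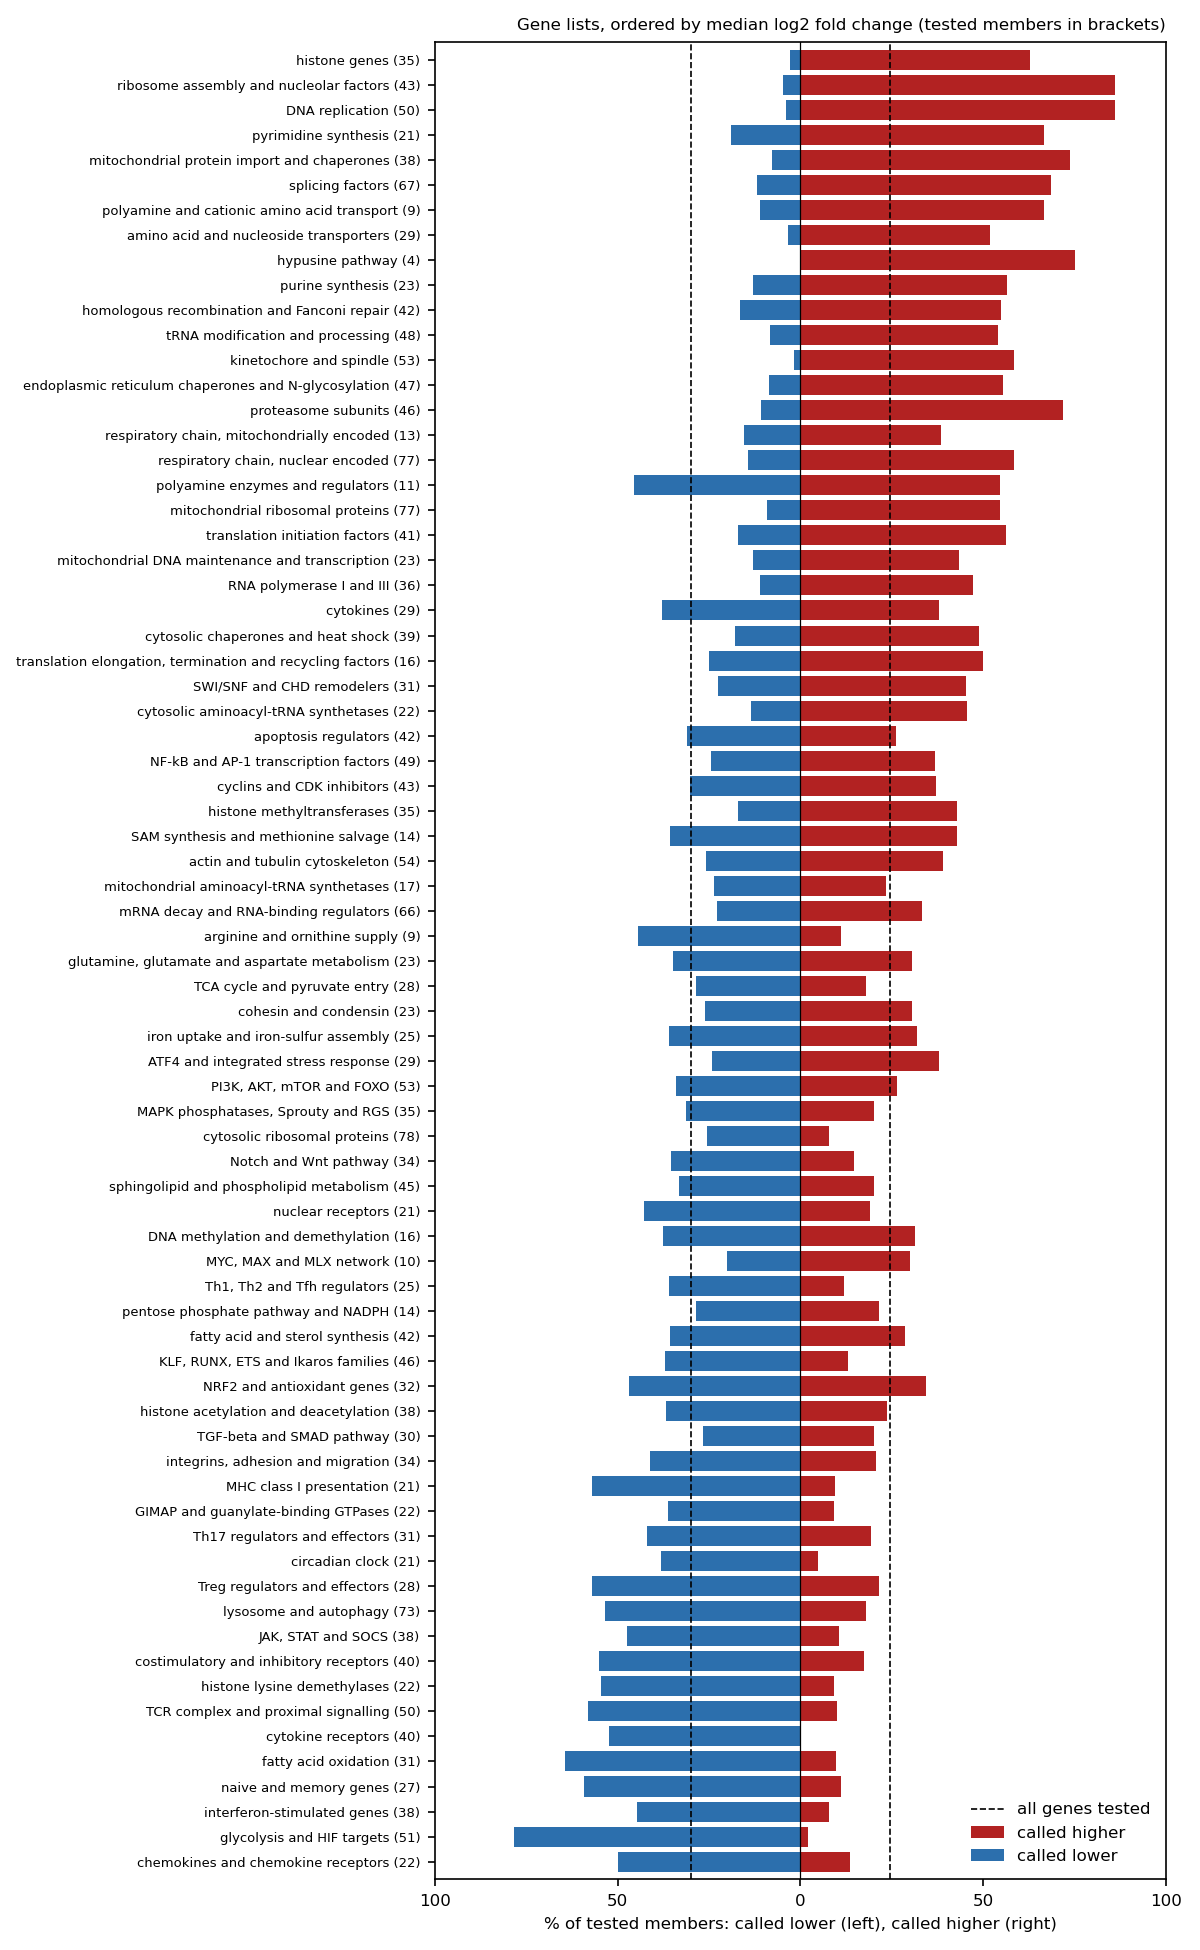
Share of the tested members of each of 73 gene lists that were called higher (right) or lower (left) in DFMO, in percent, ordered by median log2 fold change. Dashed lines mark the shares over all genes tested, 24.6% and 29.9%. Histones (62.9% higher) stand first, followed by ribosome assembly (86.0% higher) and DNA replication (86.0% higher), with glycolysis and HIF targets (78.4% lower) near the bottom.

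All 11 tested genes of polyamine enzymes and their regulators were called, 6 higher and 5 lower. The genes that make polyamines rose. Srm (chromosome 4, 148591503 to 148594993, GRCm38), which encodes spermidine synthase, was at 37.8, 33.6, 44.9 and 51.3 CPM in ctrl and 377, 317, 441 and 427 CPM in DFMO for animals 1 to 4 in that order. The lowest DFMO library lay above every ctrl library, and the log2 fold change was 3.22 ± 0.14 (± SE, adjusted p = 1.41e-15), a 9.29-fold difference. Odc1 (chromosome 12, 17544794 to 17551505), the target of DFMO, was at 110.3, 80.3, 98.1 and 105 CPM in ctrl and 147, 115, 153 and 201 CPM in DFMO. Its groups did not overlap either, but the change was smaller, 0.64 ± 0.13 (adjusted p = 0.00017). Amd1, which supplies the aminopropyl group for spermidine and spermine by decarboxylating S-adenosylmethionine, was at 106, 111, 94.7 and 92.8 CPM in ctrl and 261, 274, 251 and 278 CPM in DFMO, a change of 1.40 ± 0.10. Its near-identical copy Amd2 makes the split of its reads uncertain. Spermine synthase (Sms) rose only by 0.28 (adjusted p = 0.0229), and the call was lost without ctrl replicate 2 or 4. The methionine adenosyltransferase gene Mat2a, which makes S-adenosylmethionine, was at 62.1, 52.6, 39.8 and 52.8 CPM in ctrl and 165, 160.1, 145 and 160.1 CPM in DFMO. This change of 1.61 ± 0.11 was the largest among the 14 genes of S-adenosylmethionine synthesis and methionine salvage, of which 6 rose and 5 fell.

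The regulators of ornithine decarboxylase moved in opposite directions. Antizymes bind the enzyme and send it to the proteasome, and both tested antizyme genes fell. Oaz1 was at 832, 837, 791 and 819.7 CPM in ctrl and 476, 468, 513 and 485 CPM in DFMO (-0.76 ± 0.08). Oaz2 fell further, from 73 to 94.8 CPM to 21.2 to 27.4 CPM over the 4 libraries of each group (-1.82 ± 0.11, adjusted p = 4.31e-13). Azin1, the antizyme inhibitor that releases the enzyme, was at 54.9, 44.9, 60.4 and 54.3 CPM in ctrl and 124, 105, 113 and 133 CPM in DFMO, a rise of 1.14 ± 0.15. None of these 3 genes had overlapping groups.

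The catabolic enzymes fell. Sat1, the acetyltransferase that starts polyamine breakdown and export, was at 345, 337, 328 and 347 CPM in ctrl and 217, 195, 223 and 204 CPM in DFMO (-0.69 ± 0.08). Smox, spermine oxidase, was at 185, 275, 227 and 258 CPM in ctrl and 109, 116, 92.1 and 126 CPM in DFMO (-1.09 ± 0.10, adjusted p = 1.08e-09). Both sets of 4 DFMO values lay below all ctrl values. Paox, the oxidase of acetylated polyamines, had overlapping groups (28.5, 27.5, 23.2 and 26.4 CPM in ctrl and 18, 24.7, 16.4 and 18 CPM in DFMO), and its change of -0.45 (adjusted p = 0.0381) lost its call in 8 of 17 alternative fits.

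Transport genes mostly rose. In the list of polyamine and cationic amino acid transport, 6 of 9 tested genes rose and 1, Slc12a8, fell. Slc7a1, an arginine transporter, was at 105, 89.4, 78.3 and 70.3 CPM in ctrl and 177, 159, 149 and 148 CPM in DFMO (0.89 ± 0.08), and Slc3a2, the heavy chain shared by several amino acid exchangers, rose by 0.50. Of 9 tested genes of arginine and ornithine supply, 1 rose and 4 fell. Gatm, which uses arginine and releases ornithine, was at 142, 167, 166 and 147 CPM in ctrl and 26.5, 38.8, 36.4 and 37.1 CPM in DFMO, a 4.49-fold decrease (-2.17 ± 0.10). Nos2, the inducible nitric oxide synthase that also consumes arginine, fell from 16.7 to 21 to 3.5 to 4.42 CPM (-2.25), and Pycr1, which makes proline, fell by 1.16 on the log2 scale.

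In the hypusine pathway 3 of 4 genes rose and none fell, also at an unadjusted p under 0.05 and in every other fit run, limma and DESeq2 included. Eif5a, the main substrate, was at 2027, 1880.3, 1913 and 1865 CPM in ctrl and 2722, 2578, 2610.4 and 2418 CPM in DFMO, a change of 0.43 ± 0.05 (adjusted p = 2.42e-07) with no overlap. Dohh, the hydroxylase of the final step, was at 95.6, 90.5, 90.0 and 84.4 CPM in ctrl and 168, 142, 142 and 147 CPM in DFMO (0.73 ± 0.10). Dhps, which attaches the spermidine-derived group, rose less, by 0.44 ± 0.13 (adjusted p = 0.00637). The second isoform gene, Eif5a2, stood at 6.06 to 8.51 CPM in ctrl and 7.16 to 10.9 CPM in DFMO and was not called (adjusted p = 0.517).

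**Figure D3:**
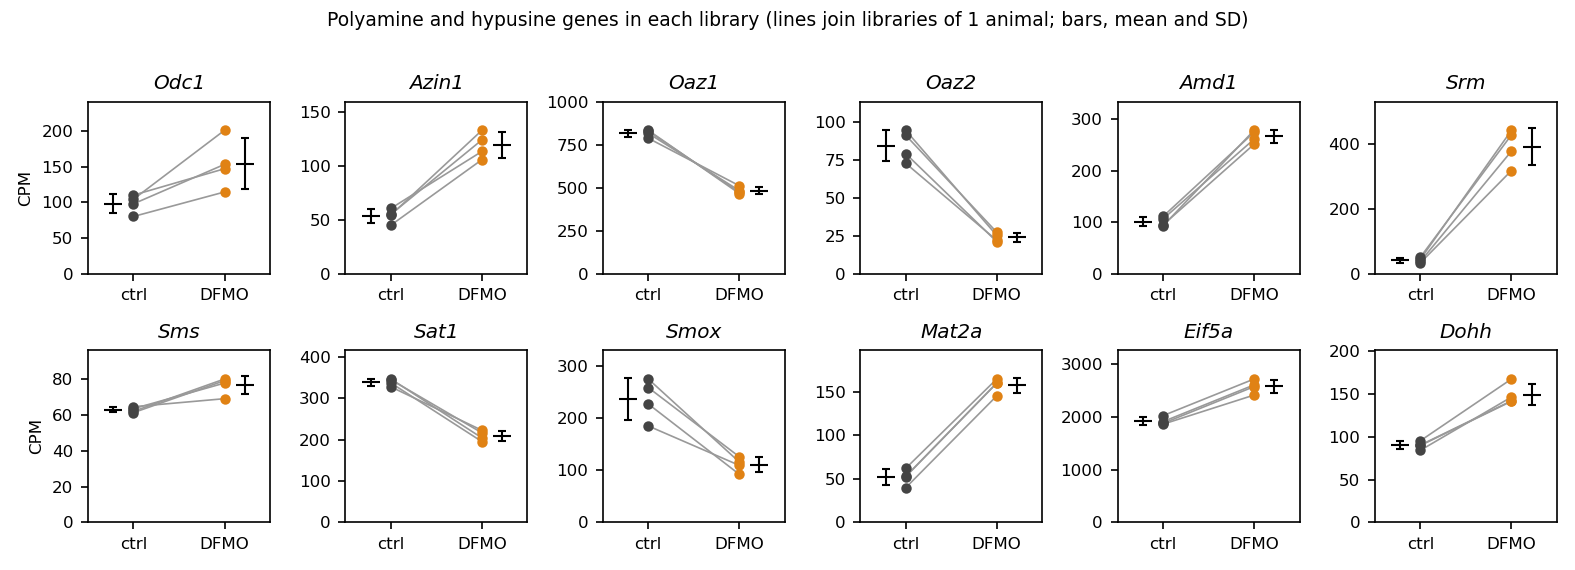
CPM of 12 polyamine and hypusine genes in each library, ctrl on the left and DFMO on the right of each panel, with grey lines joining libraries of 1 animal and black marks showing mean and SD (n = 4). Srm runs from 33.6 to 51.3 CPM in ctrl and 317 to 441 CPM in DFMO, while Oaz1, Oaz2, Sat1 and Smox are lower in every DFMO library.

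Genes for making ribosomes rose far more often than genes for the ribosome itself. Of 43 tested ribosome assembly and nucleolar factors 37 rose and 2 fell (median 0.87). Nolc1, a nucleolar chaperone, was at 93, 74.2, 84.2 and 87.6 CPM in ctrl and 266, 285, 243 and 239 CPM in DFMO (1.61 ± 0.09), with no overlap. The 2 that fell were Npm1 (-0.22) and Rrp1b (-0.33), and both calls were lost when filtered TPM values were fitted. Among 36 RNA polymerase I and III genes 17 rose and 4 fell. Ubtf, which helps RNA polymerase I start on ribosomal DNA, was at 57.7, 54.6, 41.5 and 48.9 CPM in ctrl and 106, 124, 126 and 108 CPM in DFMO (1.20 ± 0.09), whereas the polymerase III subunit gene Polr3gl fell by 1.03.

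Of 78 cytosolic ribosomal protein genes 6 rose, 20 fell and 52 were not called (median -0.07). The summed level of the list was 272747 ± 18382 TPM in ctrl and 270203 ± 15990 TPM in DFMO (SD, n = 4). The 20 decreases became 12 without ctrl replicate 1, without DFMO replicate 3 and without the animal block, and the rises ran from 3 to 17 over the fits. Rps2 stood apart at 1488, 1563, 2218 and 2417 CPM in ctrl and 5416, 5831, 6223 and 5977 CPM in DFMO (1.61 ± 0.16); this gene has many processed copies, so its reads may be shared among them. Rpl12 fell by 0.67 on the log2 scale.

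Genes for proteins that modify and process tRNAs, or load them with amino acids in the cytosol, also rose more often than they fell. Of 48 genes of tRNA modification and processing 26 rose and 4 fell (median 0.37). Nsun2, which methylates cytosines in tRNAs, was at 102, 105, 115 and 128 CPM in ctrl and 528, 413, 459.6 and 428 CPM in DFMO (2.01 ± 0.17). Elac2, which trims tRNA 3' ends, rose by 1.46 ± 0.14. Of 22 cytosolic aminoacyl-tRNA synthetases 10 rose and 3 fell. Wars (tryptophan) and Hars (histidine) rose by 0.72 and 0.59, and Dars (aspartate) and Sars (serine) changed by -0.79 and -0.45. Of 17 mitochondrial synthetases 4 rose and 4 fell (23.5% each), near the shares over all genes tested (24.6% and 29.9%). Among them Iars2 rose by 1.29 ± 0.20.

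Initiation factors rose in 23 of 41 cases and fell in 7 (median 0.26). Eif4g1, the scaffold that brings the cap-binding protein and the helicase together, was at 108, 101, 96.4 and 90.9 CPM in ctrl and 231, 224, 202 and 206 CPM in DFMO (1.12 ± 0.07, adjusted p = 3.39e-13). Eif3f rose by 1.15 ± 0.14. Pdcd4, an inhibitor of that helicase, was at 56.4, 71.5, 89.4 and 82.9 CPM in ctrl and 10.9, 17, 19 and 20.5 CPM in DFMO, a 4.47-fold decrease (-2.16 ± 0.13). Eif4e3, an atypical cap-binding protein, fell by 1.32. Of 16 elongation, termination and recycling factors 8 rose and 4 fell.

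Genes of nucleotide synthesis mostly rose. In purine synthesis 13 of 23 genes rose and 3 fell (median 0.43), and in pyrimidine synthesis 14 of 21 rose and 4 fell (median 0.62). Pfas and Gart, enzymes of the purine ring, rose by 1.25 ± 0.08 and 1.06 ± 0.08. Nme1, which phosphorylates nucleoside diphosphates, was at 157, 145, 152 and 187 CPM in ctrl and 429, 443, 436 and 436 CPM in DFMO (1.45 ± 0.07). The subunit that limits ribonucleotide reductase, Rrm2, was at 167, 116, 128 and 148 CPM in ctrl and 482, 493, 470.0 and 450.5 CPM in DFMO (1.77 ± 0.08), and Tyms, which makes thymidylate, rose by 1.31. Samhd1, which breaks deoxynucleotides down, moved the other way at 507, 532, 533 and 464 CPM in ctrl and 107, 107, 136 and 112 CPM in DFMO (-2.14 ± 0.12, adjusted p = 6.48e-14). Impdh1 fell by 0.60. None of these 7 genes had overlapping groups.

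Of 50 tested DNA replication genes 43 rose and 2, Orc4 and Rnaseh2a, fell (median 0.75). The groups did not overlap for 42 of the 50, against 47.1% of all genes tested. Cdc6, which loads the replicative helicase onto origins, was at 41.3, 26.6, 29.1 and 30.9 CPM in ctrl and 121, 129, 102 and 88.5 CPM in DFMO (1.78 ± 0.12, adjusted p = 2.24e-12). The helicase subunits Mcm2 and Mcm5 rose by 1.20 ± 0.09 and 1.16 ± 0.09, and the flap endonuclease Fen1 by 1.42 ± 0.09. E2F proteins are the usual activators of this group, and their site was searched in the promoters of RefSeq (GRCm38.p6, 250 bases before to 50 after the gene's start). A promoter was listed for 8671 of the 10985 genes tested. The letters TTTCCCGC, TTTGGCGC or TTTCGCGC on either strand occurred in 3.73% of those 8671 promoters and in 1.91% of all 27025 promoters of the table. They occurred in 6.90% of 2144 promoters of genes that rose, 2.41% of 2617 of genes that fell and 15 of 41 in the DNA replication list (36.6%). A match is only a run of letters, not a site shown to be bound. The list is made of genes that E2F proteins usually activate, so the shared letters are not independent of its choice. E2F activity was not tested. Promoters of 2 members, chosen after the matches were seen, are printed 5′ to 3′ on the gene's strand with the matched letters in capitals, since they carry the shared feature. Cdc6 (chr11:98907901-98908200, plus strand) has 1 match and Mcm5 (chr8:75109259-75109558, plus strand) 2 that overlap.
Cdc6: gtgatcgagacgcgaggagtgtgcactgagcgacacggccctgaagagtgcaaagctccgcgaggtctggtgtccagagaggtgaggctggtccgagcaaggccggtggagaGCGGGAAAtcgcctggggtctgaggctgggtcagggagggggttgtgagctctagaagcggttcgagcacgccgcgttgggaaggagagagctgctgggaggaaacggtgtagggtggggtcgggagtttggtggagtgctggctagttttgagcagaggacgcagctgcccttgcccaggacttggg
Mcm5: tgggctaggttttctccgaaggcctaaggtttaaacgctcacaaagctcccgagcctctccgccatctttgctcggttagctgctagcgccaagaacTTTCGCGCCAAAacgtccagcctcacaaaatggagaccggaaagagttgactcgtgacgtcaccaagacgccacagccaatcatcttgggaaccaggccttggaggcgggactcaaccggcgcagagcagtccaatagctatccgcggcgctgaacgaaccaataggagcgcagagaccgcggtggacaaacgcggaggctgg

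Mitosis and repair genes rose less evenly. In the kinetochore and spindle list 31 of 53 genes rose and 1 fell (median 0.36). Birc5 (survivin) was at 129.5, 115, 93.2 and 111 CPM in ctrl and 208, 217, 209 and 244 CPM in DFMO (0.97 ± 0.10). The phosphatase gene Cdc25b was the member that fell, by 0.66. In homologous recombination and Fanconi repair 23 of 42 rose and 7 fell (15 higher in a fit of unfiltered TPM values). Exo1, a nuclease that trims DNA ends, rose by 1.13 ± 0.11, while Rad52 was at 93.9, 147, 103 and 123 CPM in ctrl and 41.1, 51.8, 37.7 and 43.6 CPM in DFMO (-1.41 ± 0.11). Of 23 cohesin and condensin genes 7 rose and 6 fell (30.4% and 26.1%), near the shares over all genes tested (24.6% and 29.9%).

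Cell cycle regulators were mixed, with 16 of 43 cyclins and CDK inhibitors higher and 13 lower. E2f8, a repressor of the E2F family that is itself made in S phase, was at 17.1, 12, 8.94 and 11.7 CPM in ctrl and 51.4, 44.5, 51.8 and 39.8 CPM in DFMO (1.92 ± 0.14). Of the other E2F genes, E2f3, E2f4, E2f5 and E2f7 rose, E2f1 fell, and E2f2 and E2f6 were not called. Rbl2, the p130 pocket protein of resting cells, fell from 43.1 to 63.4 to 11.3 to 27.6 CPM (-1.64 ± 0.16). Cdkn1a, the p21 inhibitor, was at 558, 556, 584 and 549.9 CPM in ctrl and 301, 316, 303 and 308 CPM in DFMO (-0.87 ± 0.08). In the MYC network 3 of 10 genes rose and 2 fell. Myc had overlapping groups at 469, 486, 373 and 425 CPM in ctrl and 553, 559, 484 and 465 CPM in DFMO, and its change of 0.24 ± 0.08 (adjusted p = 0.0198) was lost without ctrl replicate 3. The MAX partners that oppose MYC differed among themselves. Mxd1 and Mxd4 fell by 3.69-fold and 4.06-fold with no overlap, Mxd3 rose by 0.78 ± 0.17, also with no overlap, and Mxi1 and Mnt were not called (-0.28 and -0.30), although Mxi1 was without ctrl replicate 2 (-0.38).

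Of 35 tested histone genes 22 rose and 1 fell (median 0.94), although near-identical copies share reads. Of the 35, 16 had groups that did not overlap, near the share of 47.1% over all genes tested. Hist1h4i was at 11.9, 11.7, 8.3 and 10.4 CPM in ctrl and 37.1, 44, 38.8 and 46.8 CPM in DFMO (1.98 ± 0.16). Hist1h2ap, a histone gene outside the list, was at 519, 576, 432 and 588 CPM in ctrl and 1099.9, 1567, 1224 and 1420.3 CPM in DFMO. The variant H2afx, which is phosphorylated at DNA breaks, was at 83.7, 71.5, 67 and 72.7 CPM in ctrl and 168, 189, 189 and 205 CPM in DFMO (1.35 ± 0.10), and H3f3b (H3.3) rose by 0.87. The only member that fell was the macroH2A gene H2afy (-0.76 ± 0.09).

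Enzymes that write and erase chromatin marks moved in both directions. Of 22 histone lysine demethylases 2 rose and 12 fell (median -0.41), and 6 fell when TPM values were fitted (median -0.20 in the unfiltered fit). Kdm5b was at 76.6, 96.8, 83.6 and 79.4 CPM in ctrl and 46.4, 49.8, 50.5 and 56.2 CPM in DFMO (-0.73 ± 0.09). Jarid2, a JmjC protein of the PRC2 complex without demethylase activity, fell by 0.79, and Kdm2b rose by 0.54 as did Kdm8 by 0.72; the calls of Jarid2 and Kdm2b were lost on TPM values. Kdm6b, which encodes JMJD3, was at 33.5, 43.1, 51.1 and 60.6 CPM in ctrl and 36, 55.1, 64 and 62.7 CPM in DFMO. The groups overlapped and the change of 0.21 ± 0.13 was not called (adjusted p = 0.164), although it was called in the fit of the compared groups alone (0.26) and without ctrl replicate 4 (0.32). Histone methyltransferases rose in 15 of 35 cases and fell in 6. Ezh2, the PRC2 methyltransferase, rose by 0.82 ± 0.09, and Smyd3 was at 172, 167, 194 and 149 CPM in ctrl and 61.5, 51.1, 67.9 and 50.1 CPM in DFMO (-1.58 ± 0.12).

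Among 38 genes of histone acetylation 9 rose and 14 fell, among them Kat2a (1.51 ± 0.15) and Kat6b (-1.40 ± 0.11). Of 16 DNA methylation genes 5 rose and 6 fell (31.25% and 37.5%, against 24.6% and 29.9% of all genes tested). Uhrf1, which brings maintenance methylation to replicating DNA, rose by 0.89 ± 0.08. Tet2, which oxidises methylcytosine, was at 115, 133, 114 and 134 CPM in ctrl and 48.5, 47.8, 45 and 45.7 CPM in DFMO (-1.41 ± 0.09), and Tet1 was lower at 2.34 to 4.18 CPM against 9.09 to 11.2 CPM in ctrl, a call lost on TPM values. Of 31 SWI/SNF and CHD remodelers 14 rose (9 in the fit of unfiltered TPM values) and 7 fell.

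Splicing factors rose in 46 of 67 cases and fell in 8 (median 0.52). The groups did not overlap for 54 of the 67, against 47.1% of all genes tested. Srsf7 was at 105, 102, 114 and 142 CPM in ctrl and 253, 260.1, 288 and 282 CPM in DFMO (1.23 ± 0.08), and Hnrnpm rose by 0.95 ± 0.07. Clk1, a kinase that phosphorylates SR proteins, fell by 0.91. Among 66 genes of mRNA decay and RNA binding 22 rose and 15 fell (33.3% and 22.7%, against 24.6% and 29.9% of all genes). Dgcr8, which partners DROSHA in cutting primary microRNAs, was at 10.4, 9.7, 9.36 and 10.6 CPM in ctrl and 41.1, 42.7, 35.6 and 36.9 CPM in DFMO (1.96 ± 0.14), whereas Ago2, which carries mature microRNAs, fell by 0.53 with no overlap.

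Among nuclear genes for mitochondria, those of protein import, the ribosome and the respiratory chain rose more often than they fell. In protein import and chaperones 28 of 38 genes rose and 3 fell (median 0.52). Timm10, a small chaperone of the intermembrane space, was at 21.6, 20.1, 16.4 and 22.3 CPM in ctrl and 65.2, 52.6, 63.7 and 66.5 CPM in DFMO (1.62 ± 0.12). Hspd1 (HSP60) rose by 1.00 ± 0.07. Mitochondrial ribosomal proteins rose in 42 of 77 cases and fell in 7 (median 0.28), and nuclear respiratory chain genes in 45 of 77, with 11 lower (median 0.29). Atp5g1, a subunit of the ATP synthase ring, was at 160.0, 130.2, 147 and 151 CPM in ctrl and 289, 268, 288 and 276 CPM in DFMO, while the complex I gene Ndufa6 fell by 0.76. Of 28 genes of the TCA cycle and pyruvate entry 5 rose and 8 fell. These were 17.9% and 28.6%, against 24.6% and 29.9% of all genes tested.

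The 13 respiratory genes encoded in mitochondrial DNA varied among animals. Of these 5 rose and 2 fell, and none had groups without overlap, against 47.1% of all genes. mt-Nd1 was at 817, 827, 1218 and 1577 CPM in ctrl and 1554, 1476, 2443 and 2897 CPM in DFMO (0.92 ± 0.19, adjusted p = 0.000166). In each animal the DFMO value was the higher, but animal 4 in ctrl exceeded animals 1 and 2 in DFMO. mt-Co1 moved the other way, at 3176, 4077, 5996 and 6239 CPM in ctrl and 1999, 2197, 3442 and 4584 CPM in DFMO (-0.69 ± 0.14). With all genes of the list, the summed level was 11754 ± 4331 TPM in ctrl and 14035 ± 5611 TPM in DFMO (SD, n = 4). The rises were 8 in the fit of the compared groups alone and 3 on TPM values.

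Glycolysis and HIF target genes fell together. Of 51 tested, 40 fell and 1 rose (median -0.71), and the summed level of the list went from 32004 ± 1692 TPM to 23436 ± 1802 TPM (SD, n = 4). Aldoc, an aldolase, was at 278, 348, 280.4 and 301 CPM in ctrl and 28.6, 30.4, 25.5 and 29.6 CPM in DFMO. This was a 10.6-fold decrease (-3.41 ± 0.13, adjusted p = 1.45e-16) with no overlap. Gbe1, the glycogen branching enzyme, fell from 95.2 to 124 to 11.1 to 21.6 CPM (-2.69 ± 0.17). Bnip3l and Bnip3, receptors that mark mitochondria for removal under low oxygen, changed by -1.61 ± 0.08 and -1.30 ± 0.09, and the collagen prolyl hydroxylase subunit P4ha2 by -1.36 ± 0.16, all with no overlap. The 1 gene that rose was the lactate and pyruvate carrier Slc16a1, at 55.1, 66.1, 75.5 and 75.5 CPM in ctrl and 106, 101, 103 and 114 CPM in DFMO (0.65 ± 0.12).

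The core letters of the hypoxia response element, ACGTGC on either strand, were searched in the same promoter windows. They can overlap the E-box CACGTG. A match was found in 8.37% of the promoters of genes tested, in 5.92% of all promoters in the table, and in 17 of 47 in the glycolysis and HIF list (36.2%). That list was written partly from known HIF targets, so the shared letters are not independent of its choice. The share was 8.48% over all genes that fell and 9.42% over all that rose, and it was 20.3% in splicing factors and 22.5% in tRNA modification, lists in which more genes rose. Promoters of Bnip3 (chr7:138909457-138909756, minus strand), with 2 matches that overlap, and P4ha2 (chr11:54100674-54100973, plus strand), with 1, are printed 5′ to 3′ on the gene's strand as the group's example, with the matched letters in capitals. Both promoters were chosen after the matches were seen. The 2 Bnip3 matches are 1 stretch, GCACGTGC, read on both strands, and it holds the E-box CACGTG.
Bnip3: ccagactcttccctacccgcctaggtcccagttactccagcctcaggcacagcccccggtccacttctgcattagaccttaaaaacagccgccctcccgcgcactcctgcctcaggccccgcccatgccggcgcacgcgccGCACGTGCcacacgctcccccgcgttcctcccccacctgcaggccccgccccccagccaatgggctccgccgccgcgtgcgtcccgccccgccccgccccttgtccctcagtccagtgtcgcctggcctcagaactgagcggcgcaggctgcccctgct
P4ha2: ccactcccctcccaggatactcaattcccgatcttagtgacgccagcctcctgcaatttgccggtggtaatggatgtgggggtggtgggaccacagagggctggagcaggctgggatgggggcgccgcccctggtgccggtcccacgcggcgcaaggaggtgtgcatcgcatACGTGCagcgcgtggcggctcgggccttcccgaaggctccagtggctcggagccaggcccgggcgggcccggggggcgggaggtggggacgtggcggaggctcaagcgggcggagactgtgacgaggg

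In fatty acid oxidation 20 of 31 genes fell and 3 rose (median -0.46). Acadl, a mitochondrial acyl-CoA dehydrogenase, was at 183, 179, 166 and 155 CPM in ctrl and 71.3, 90.5, 93.6 and 78.6 CPM in DFMO (-1.04 ± 0.10), and the peroxisomal oxidase Acox3 fell by 1.25. In fatty acid and sterol synthesis 12 of 42 rose and 15 fell (28.6% and 35.7%, against 24.6% and 29.9% of all genes tested). Fasn, fatty acid synthase, was at 113, 96.1, 75.3 and 66.7 CPM in ctrl and 199.6, 196, 161 and 153 CPM in DFMO (1.03 ± 0.07), while Acss2, which makes acetyl-CoA from acetate, fell by 3.18-fold. Dgat1, which closes triglyceride synthesis, was at 108, 171, 122 and 173 CPM in ctrl and 36.3, 40.5, 35.4 and 43.1 CPM in DFMO (-1.87 ± 0.13). Amino acid and nucleoside transporters rose in 15 of 29 cases and 1, Slc38a9, fell (median 0.44).

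In the NRF2 and antioxidant list 11 of 32 genes rose and 15 fell. The peroxidases Gpx1 and Prdx1 rose, by 1.09 ± 0.08 and 0.88 ± 0.07. The metallothionein gene Mt1, which binds zinc, was at 564, 723, 631 and 718 CPM in ctrl and 153, 155, 206 and 179 CPM in DFMO (-1.94 ± 0.11). Mgst2, a microsomal glutathione transferase, fell from 62.1 to 74.4 to 9.81 to 15.4 CPM (-2.53 ± 0.14). Among 25 iron genes 8 rose and 9 fell (32.0% and 36.0%, against 24.6% and 29.9% of all genes tested). Fth1, the ferritin heavy chain, was at 1277, 1444, 1351 and 1462 CPM in ctrl and 602, 791, 719 and 776 CPM in DFMO, a change of -0.94 ± 0.07 (adjusted p = 6.65e-12). Slc39a14, a carrier of zinc and iron, fell by 1.55.

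More genes of the proteasome and of protein folding rose than fell, and more lysosomal genes fell than rose. Proteasome subunits rose in 33 of 46 cases and fell in 5 (median 0.31). Psmc4, an ATPase of the cap, was at 144, 130.2, 139 and 130.5 CPM in ctrl and 297, 323, 255 and 262 CPM in DFMO (1.07 ± 0.10), and the interferon-inducible activator Psme1 fell by 0.57. Endoplasmic reticulum chaperones and N-glycosylation genes rose in 26 of 47 cases and fell in 4 (median 0.33). Cytosolic chaperones rose in 19 of 39 and fell in 7. In lysosome and autophagy 39 of 73 genes fell and 13 rose (median -0.32). Npc2, which carries cholesterol in lysosomes, was at 599.7, 684, 615 and 660.2 CPM in ctrl and 286, 314, 289 and 299.8 CPM in DFMO (-1.10 ± 0.07), and Gla, alpha-galactosidase, fell by 3.99-fold. Atg3 and Ctsc were among the 13 that rose (1.15 and 0.83).

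ATF4 and integrated stress genes were split, with 11 of 29 higher and 7 lower (median -0.04). Atf3 was at 23.4, 27.8, 24.5 and 21.9 CPM in ctrl and 63.6, 51.8, 53.8 and 73.5 CPM in DFMO (1.30 ± 0.13). Cth, which makes cysteine, fell by 1.10. Among 42 apoptosis regulators 11 rose and 13 fell (26.2% and 31.0%), near the shares over all genes tested (24.6% and 29.9%). Trp53 was at 189.9, 158, 147 and 177 CPM in ctrl and 341, 320.2, 310.3 and 313 CPM in DFMO (0.94 ± 0.08), whereas the pro-death BIM gene Bcl2l11 and the pro-survival gene Mcl1 both fell, by 4.67-fold and 2.04-fold, with no overlap.

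Genes of T cell communication fell more often than they rose. Of 40 cytokine receptor genes 21 fell and none rose (0 rose also at an unadjusted p under 0.05 in edgeR, and 0 to 2 in the other fits). Il12rb2, a receptor chain for IL-12, was at 365, 169, 322 and 156 CPM in ctrl and 66.3, 20.7, 50.2 and 19.9 CPM in DFMO. Animals 1 and 3 were higher than animals 2 and 4 in both groups, and each animal fell (-2.76 ± 0.11, adjusted p = 3.63e-16). Ifngr1 was at 117, 131, 119 and 139 CPM in ctrl and 45.9, 48.9, 49.7 and 42.2 CPM in DFMO (-1.44 ± 0.10), and Il17ra fell by 1.02. Among 22 chemokine and chemokine receptor genes 11 fell and 3 rose, and 8 to 11 and 3 to 5 did over the alternatives. The median of -0.72 was less stable: it was -0.39 without ctrl replicate 2, -0.36 in the fit of the compared groups alone, -0.14 without the filter and -0.01 on unfiltered TPM values. Ccr7, which guides T cells to lymph nodes, was at 1702, 1709.5, 1688 and 1486 CPM in ctrl and 799, 841, 889 and 674 CPM in DFMO (-1.04 ± 0.09).

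Costimulatory and inhibitory receptors fell in 22 of 40 cases and rose in 7 (median -0.41). Tnfrsf9 (4-1BB) was at 916, 1099, 1097 and 1125 CPM in ctrl and 108, 97.6, 150.3 and 127 CPM in DFMO. Its 8.87-fold decrease (-3.15 ± 0.12, adjusted p = 4.19e-17) had no overlap. Tnfrsf18 (GITR) was at 1060.3, 1177, 1162 and 1145 CPM in ctrl and 392, 386, 409 and 368 CPM in DFMO (-1.55 ± 0.08), and Ctla4 fell by 0.72. Pdcd1 (PD-1) was among the 7 that rose, at 41.1, 47.4, 50.2 and 61.2 CPM in ctrl and 121, 135, 126 and 135 CPM in DFMO (1.38 ± 0.09).

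Genes of the T cell receptor and its first signals fell in 29 of 50 cases and rose in 5 (median -0.44). Txk, a TEC family kinase, fell from 52.1 to 75.1 to 5.2 to 13.5 CPM (-2.64 ± 0.18). Cblb, a ubiquitin ligase that restrains the receptor, was at 149.7, 187, 167 and 156 CPM in ctrl and 39.8, 39.2, 36.9 and 46.3 CPM in DFMO (-2.02 ± 0.12), and Themis fell by 1.45. The phosphatase gene Ptpn7 and the adaptor Lcp2 (SLP-76) rose, by 0.92 and 0.51. Members that promote and members that restrain signalling are thus both among those that fell.

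In the JAK, STAT and SOCS list 18 of 38 genes fell and 4 rose (median -0.34, and -0.38 to -0.21 over the alternatives). Stat3, which carries the IL-6 signal, was at 754, 955, 806 and 809.5 CPM in ctrl and 479, 465, 439 and 446 CPM in DFMO (-0.86 ± 0.07, adjusted p = 1.39e-10). Socs3, its feedback inhibitor, changed by -1.17 ± 0.08, and the kinase gene Pim2 was at 290.2, 318, 299 and 329 CPM in ctrl and 75.8, 78.6, 78.8 and 77.2 CPM in DFMO (-1.99 ± 0.09). Socs2 rose at 75.5, 63.4, 76.2 and 65.8 CPM in ctrl and 287, 284, 272 and 264 CPM in DFMO (1.97 ± 0.11). None of the 4 genes had overlapping groups.

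Th17 genes fell in 13 of 31 cases and rose in 6 (median -0.27). Il17a was at 58.2, 169, 128 and 251 CPM in ctrl and 36.8, 27.5, 45.3 and 112 CPM in DFMO, and Il17f at 620.0, 1024, 689.5 and 1332 CPM in ctrl and 259, 642, 372 and 733 CPM in DFMO. Both varied widely among animals and their groups overlapped, but each animal had the lower value in DFMO. The changes were -1.47 ± 0.21 (adjusted p = 6.5e-06) and -0.92 ± 0.16 (adjusted p = 2.85e-05); the call of Il17f was lost in DESeq2 and on TPM values. Il23r, the IL-23 receptor chain, was at 13, 10.6, 10.2 and 15.1 CPM in ctrl and 3.18, 5.06, 4.94 and 3.77 CPM in DFMO (-1.51 ± 0.33) with no overlap. Rora, a nuclear receptor that promotes the Th17 state, was at 192, 265, 236 and 283 CPM in ctrl and 83.2, 108, 92.1 and 124 CPM in DFMO (-1.27 ± 0.13), also with no overlap. Among the 6 that rose, Ccl20, a chemokine made by Th17 cells, was at 7.35, 8.12, 8.72 and 13.2 CPM in ctrl and 39, 38.8, 42.1 and 49.2 CPM in DFMO (2.20 ± 0.23), and Cd5l, a lipid regulator known from non-pathogenic Th17 cells, was at 9.95, 15.6, 16.2 and 18.4 CPM in ctrl and 45.3, 52, 45 and 44.1 CPM in DFMO (1.66 ± 0.21). Both had no overlap, and Il9, given with the cytokines, is another member that rose.

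Most called genes of regulatory T cells fell while Foxp3 rose. Foxp3 (chromosome X, 7573644 to 7595245) was at 14.7, 6.77, 10.2 and 6.92 CPM in ctrl and 28.9, 38.8, 40.8 and 39.8 CPM in DFMO, a 3.78-fold rise (1.92 ± 0.21, adjusted p = 2.12e-08) with no overlap. In the list of regulatory T cell genes 16 of 28 fell and 6 rose (median -0.32). Lrrc32, which displays latent TGF-beta, fell from 50.4 to 77.2 to 7.8 to 16.5 CPM (-2.40 ± 0.20), and Satb1 was at 518, 662, 535 and 608 CPM in ctrl and 139, 192, 164 and 171 CPM in DFMO (-1.80 ± 0.09).

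Cytokine genes moved in both directions, 11 of 29 higher and 11 lower, and the rises were 6 without ctrl replicate 2 and 7 without DFMO replicate 1. Il9 was at 58.4, 27.3, 126 and 64.1 CPM in ctrl and 435, 366, 599 and 573 CPM in DFMO (2.87 ± 0.27, adjusted p = 1.56e-09), with the lowest DFMO library above the highest ctrl library. Tnf rose by 1.01 ± 0.11. Tgfb3 was at 67.9, 118, 70.2 and 104 CPM in ctrl and 3.45, 6.17, 3.64 and 5.38 CPM in DFMO, a 19-fold decrease (-4.25 ± 0.23), and Il24 fell by 1.58.

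**Figure D4:**
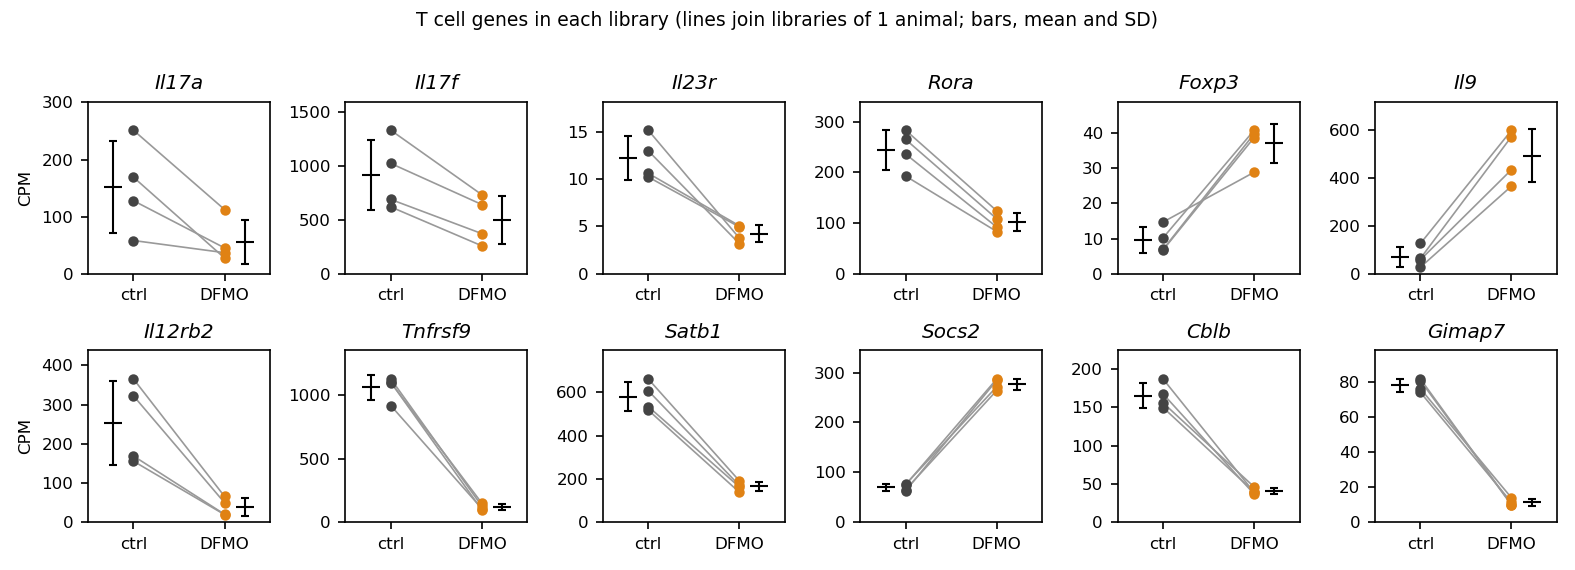
CPM of 12 T cell genes in each library, drawn as for the polyamine genes (points are libraries, grey lines join 1 animal, black marks are mean and SD, n = 4). Il17a, Il17f and Il12rb2 differ widely among animals yet fall within each of the 4, and Foxp3, Il9 and Socs2 are higher in every DFMO library than in any ctrl library.

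Genes of resting and memory T cells fell in 16 of 27 cases and rose in 3 (median -0.49). Satb1 and Txk, given above, are among those that fell. Id3, an inhibitor of E proteins, rose, at 30.3, 31.4, 27.4 and 26.4 CPM in ctrl and 58.8, 54.4, 39.5 and 53.3 CPM in DFMO (0.83 ± 0.14) with no overlap. GIMAP and guanylate-binding GTPases fell in 8 of 22 cases and rose in 2. Gimap6 was at 290.0, 365, 317 and 356 CPM in ctrl and 91.7, 95.6, 92.3 and 105 CPM in DFMO and Gimap7 fell by 6.95-fold; these are neighbouring, similar genes, so some reads may be shared. Interferon-stimulated genes fell in 17 of 38 cases and rose in 3 (median -0.63). On unfiltered TPM values 10 fell with a median of -0.20, and without ctrl replicate 3 the median was -0.39. Dhx58, a regulator of RNA sensing, was at 40.9, 42.4, 46.4 and 35.5 CPM in ctrl and 5.04, 4.18, 6.5 and 4.57 CPM in DFMO (-3.03 ± 0.20), while Slfn2 rose by 1.92 ± 0.13. In MHC class I presentation 12 of 21 fell and 2 rose, but 6 fell without the animal block and 7 without ctrl replicate 1 or DFMO replicate 3. H2-Q7 fell by 1.53, with reads that similar H2-Q genes may share.

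Transcription and signalling families were mixed. Of 49 NF-kB and AP-1 genes 18 rose and 12 fell (7 on log2(TPM + 0.1)). Ier2 was at 61.4, 65.4, 74.7 and 75.5 CPM in ctrl and 280.4, 288, 264 and 242 CPM in DFMO (1.94 ± 0.14), Egr2 rose by 1.36 ± 0.14, and Traf1 and Ier3 fell by 1.35 and 1.70. In the KLF, RUNX, ETS and Ikaros families 6 of 46 rose and 17 fell, 11 without DFMO replicate 2 and 6 to 7 on TPM values. Runx3 was at 177, 189, 177 and 176 CPM in ctrl and 72.4, 67.4, 62.2 and 76.7 CPM in DFMO (-1.37 ± 0.17), and Klf10, a TGF-beta induced gene, rose by 1.38 ± 0.13. Of 53 genes of PI3K, AKT, mTOR and FOXO signalling 14 rose and 18 fell, 10 to 11 on TPM values, and the median ran from -0.09 to 0.05 over the alternatives. The shares of 26.4% and 34.0% lay near those of all genes tested (24.6% and 29.9%). Pik3ip1, an inhibitor of PI3K, fell from 52.6 to 66.1 to 10.3 to 14.6 CPM (-2.17 ± 0.14), and the kinase gene Sgk1 was at 59.9, 61.2, 54.3 and 67.1 CPM in ctrl and 107, 149, 115 and 119 CPM in DFMO (1.01 ± 0.13).

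In Notch and Wnt signalling 5 of 34 rose and 12 fell, with the receptor gene Notch2 at 49.7, 58.7, 57 and 53.9 CPM in ctrl and 118, 144, 133 and 140.5 CPM in DFMO (1.29 ± 0.10) and Rbpj, its nuclear partner, lower by 0.74. Integrins and adhesion genes rose in 7 of 34 cases and fell in 14. Itgb1, the beta 1 integrin, was at 15.8, 23.5, 16.4 and 15.4 CPM in ctrl and 96.2, 104, 101 and 149 CPM in DFMO (2.70 ± 0.25). Selplg, the ligand of P-selectin, fell by 1.05. In the circadian clock list 8 of 21 fell and 1 (Npas2) rose, and Per3 dropped from 19.3 to 22.8 to 2.08 to 4.51 CPM.

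Outside all lists, the genes of smallest p were taken by rule, 10 each way. Among those that rose, Ranbp1 and Rcc1, a partner and the exchange factor of the GTPase RAN, changed by 1.81 ± 0.09 and 1.57 ± 0.09. Chaf1a, which places new histones behind replication forks, was at 39.4, 35, 39.6 and 39.2 CPM in ctrl and 121, 146, 125 and 127 CPM in DFMO (1.76 ± 0.09). Hmgn2, a nucleosome-binding protein with many processed copies, rose by 1.60 ± 0.07. Cactin was at 8.65, 9.25, 7.87 and 9.09 CPM in ctrl and 72.6, 71.8, 64.2 and 56.5 CPM in DFMO (2.92 ± 0.18). Tsr2, a ribosomal protein chaperone, rose by 2.03 ± 0.13, and Ifrd2, Abcf2 and Ywhab by 1.56, 1.23 and 1.11.

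Among those that fell, Cnp was at 392, 459, 345 and 419 CPM in ctrl and 86.7, 102, 87.1 and 89.9 CPM in DFMO (-2.14 ± 0.08, adjusted p = 4.19e-17). Flot1, a membrane raft protein, was at 308, 369, 302 and 311 CPM in ctrl and 55.1, 74.7, 57.7 and 61.9 CPM in DFMO (-2.37 ± 0.10). Gipr, a receptor for a gut hormone, was at 51.3, 97.3, 53 and 87 CPM in ctrl and 1.33, 4.4, 1.82 and 3.77 CPM in DFMO, a 25.2-fold decrease (-4.65 ± 0.23). Itga7 and Prnp varied among animals in ctrl (177, 328, 157 and 304 CPM and 137, 227, 129 and 228 CPM) but did not overlap with DFMO. Arhgef10, Ppm1j, Ablim1 and the ribonuclease inhibitor Rnh1 fell by 7.32-fold, 4.07-fold, 3.07-fold and 3.17-fold.

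The Th17n response was next set against that of wild-type iTreg cells of the same 4 animals, with the difference of the 2 responses tested for each gene (the Th17n effect minus the iTreg effect, edgeR). Of 10985 genes 1354 differed, or 12.3%, of which 528 (4.81%) were higher and 826 (7.52%) lower in the Th17n response. The direction of this split was not stable. With scaling by total count, which shifts the median difference to 0.19 from -0.01, it was 1364 higher and 376 lower, and on log2(TPM + 1) 949 and 265. With the scaling kept, 9 of the 16 fits that left out 1 library also had more genes higher than lower, for example 683 and 593 without Th17n ctrl replicate 1. DNA replication and kinetochore genes stood higher in the Th17n response in 21 of 50 and 24 of 53 cases, and in 14 to 35 and 16 to 39 over the alternatives. The median changes of the 2 lists were 0.75 and 0.36 in Th17n and 0.31 and -0.08 in iTreg. Aminoacyl-tRNA synthetases were higher in 10 of 22 cases and lower in 1. For cytosolic ribosomal proteins 67 of 78 were lower in the Th17n response, but 15 were with scaling by total count, 21 without the animal block, 0 to 2 on TPM values and 32 to 65 when 1 library was left out. JAK, STAT and SOCS genes were lower in 13 of 38 cases (6 to 14 over the alternatives), with medians of -0.34 in Th17n and 0.04 in iTreg.

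**Figure D5:**
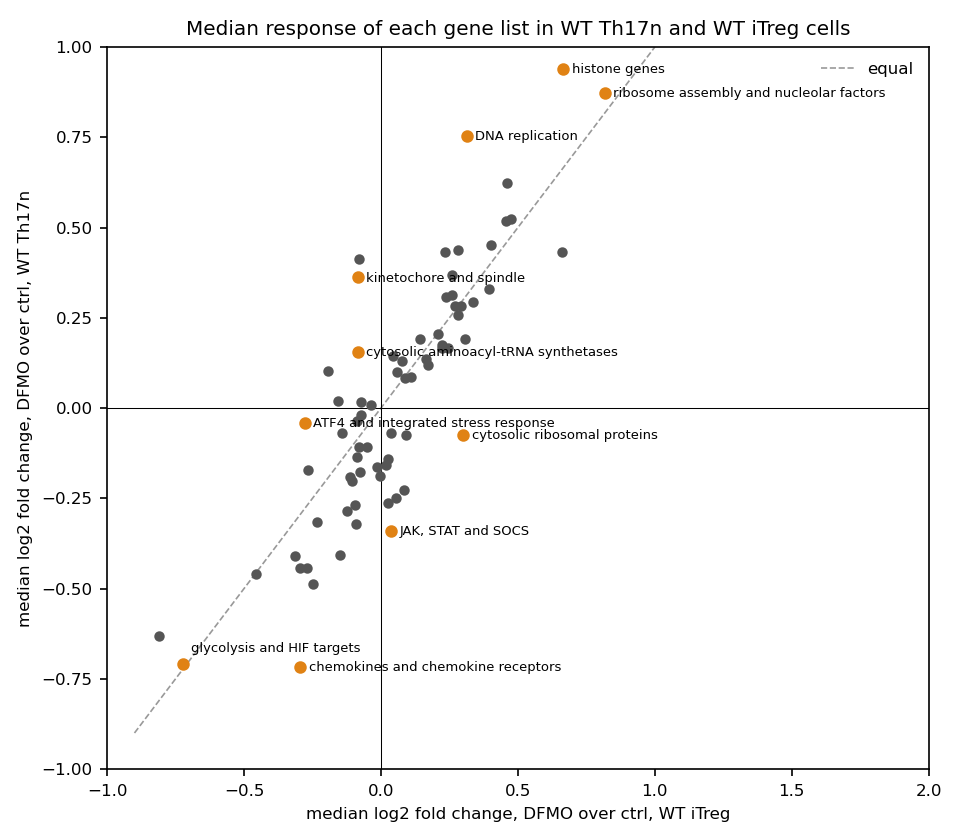
Median log2 fold change (DFMO over ctrl) of each of 73 gene lists in wild-type iTreg cells (horizontal) and wild-type Th17n cells (vertical), with a dashed line where both are equal. Glycolysis lies near the line at -0.71 and -0.72, kinetochore genes above it (0.36 against -0.08) and ribosomal proteins below it (-0.07 against 0.30).

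Single genes differed widely. Foxp3 rose in Th17n (1.92) against -0.28 in iTreg, a difference of 2.20 ± 0.26 (adjusted p = 2.04e-06). Ctla4 and Tgm2 fell in Th17n by 0.72 and 1.20 against -2.08 and -3.52 in iTreg, so their differences were positive, 1.37 ± 0.13 and 2.32 ± 0.27. Dusp4 and Plek were not called in Th17n (-0.07 and -0.07), against -1.18 and -1.90 in iTreg. On the other side, Crispld2 fell in Th17n (-2.53) against 1.51 in iTreg, a difference of -4.04 ± 0.26 (adjusted p = 9.29e-11). Cd82 and the cyclin gene Ccnd2 fell in Th17n (-0.57 and -0.40), against 0.81 and 1.00 in iTreg. Tspan13 and Ablim1 also lay lower in the Th17n response, by -1.47 ± 0.12 and -1.22 ± 0.10. Among polyamine genes Azin1 (0.71 ± 0.21) and Sat1 (0.37 ± 0.12) differed, and both calls were lost in several alternatives; Eif5a rose less in Th17n than in iTreg (0.43 against 0.96, adjusted p = 3.69e-05), which was not called on filtered TPM values.

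Against Th17n cells of the 3 KO animals, 57 genes (0.519%) responded differently, 47 (0.428%) higher and 10 (0.091%) lower in wild type. Kdm6b itself stood at 47.1 ± 11.5 CPM in Th17n ctrl WT and 34.1 ± 8.06 CPM in Th17n ctrl KO (SD, n = 4 and 3); gene-level counts do not resolve the deleted exons. Plbd2 rose by 1.66 in wild type against -0.11 in KO (difference 1.77 ± 0.23, adjusted p = 0.000234), and Lsm4, an RNA-binding Sm-like protein, by 1.62 against 0.28. Rnf187 was at 29.4, 29.6, 29.8 and 30.5 CPM in ctrl and 373, 362, 357 and 360.1 CPM in DFMO in wild type, a change of 3.63 against 1.21 in KO, and Kctd13 and Micu2 changed by 2.49 and 1.62 against 0.43 and -0.02. Of the genes lower in the wild-type response, Olfr1033 (-1.26 against -0.28) and Plac8 (-1.15 against 1.20) fell in wild type. Ly6g was at 49.5, 65.4, 31.9 and 37.7 CPM in ctrl and 0, 0.44, 0.78 and 0.269 CPM in DFMO; with similar Ly6 genes nearby its reads may be shared. The self-test recovered only 15.6% of 1.5-fold and 43.6% of 2-fold differences in this comparison, and the count was 6 on log2(TPM + 1) and 252 in the fit of the compared groups alone, so how many genes differ was not settled. Each of the differences named here also lost its call under at least 1 alternative.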

How the data were processed

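The authors deposited an estimated count and a TPM per gene for each library, and the submitters' processing notes name kallisto and GRCm38, with a kallisto version not given in the sources used here. Reads were paired, 75 bp each, per the labels' protocols. Fractions made up 32.8% of the deposited estimated counts (more than 0.001 from a whole number). The deposited TPM values summed to 863920 to 886579 per library. Strand is not stated, so reads of overlapping genes on either strand may be mixed.

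Estimated counts were rounded and fitted in edgeR 4.0.16 (R 4.3.3) by quasi-likelihood with TMM scaling. The filter on low counts was edgeR's, run over all 28 libraries. One model of 8 group means over all 28 libraries, with animal as a block, left 15 residual and 11.4 prior degrees of freedom (common dispersion 0.0120). The block was used because the labels give each library an animal number and the deviations of same-animal libraries from their group means correlated (r = 0.209, 0.137, 0.145 and 0.242, against -0.217 to 0.0221 for other pairs). Genes were called at a Benjamini-Hochberg adjusted p under 0.05. The SE of a log2 fold change was derived from the quasi-likelihood F. A simulated set of 10744 genes tested on simulated data gave 44.2%, 72.7% and 91.2% of 1.5-, 2- and 4-fold changes recovered for DFMO in wild-type Th17n, with 3 false calls. Only 77, 55 and 68 genes were changed by those folds, against 5993 genes called in the data. With so few changed genes the adjusted cutoff is stricter, so these shares do not measure recovery in that comparison.

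The members and gene lists were chosen with earlier results of these data known. Lists held 2752 entries, of which 2720 matched. Named genes are polyamine and Th17 genes set by name, the called members of smallest p in each list (3 in the leading direction, up to 2 in the other), the 10 genes each way of smallest p in no list with at least 10 CPM, and the 5 each way of each interaction. Members named beside a count of 5 or fewer, the E2F genes given without values, and Mcm5, Bnip3, P4ha2, Cd5l, Mxi1 and Mnt, were picked after their values were seen. Some genes falling under this rule are left out here. Gene positions and letter case came from GENCODE M21 for 20837 of 20891 symbols. Alternatives were no block, only the groups compared, RLE and total count scaling, no filter, DESeq2 1.42.0, limma 3.58.1 on log2(TPM + 1) and log2(TPM + 0.1), and leaving out each library.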

Additional observations from a re-analysis of the deposited data

Results flagged for a closer look

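Of 398 groups of 4 libraries (199 named genes in ctrl and in DFMO), 18 held a library whose gap to its nearest neighbour passed Dixon's 95% critical value, and chance alone flags about 1 group in 20. Ctrl replicate 2 stood apart for 8 genes: Kat2a (11.1 CPM, the others 14.3 to 14.9), Hspd1 (355 against 419 to 432), Acss2 (71.8 against 58.7 to 60.6), Runx3 (189 against 176 to 177), Itgb1 (23.5 against 15.4 to 16.4), Chaf1a (35.0 against 39.2 to 39.6), Flot1 (369 against 302 to 311) and P4ha2 (195 against 117 to 127). Ctrl replicate 1 was low for Il17ra (157 against 205 to 211) and Tnfrsf9 (916 against 1097 to 1125). Ctrl replicate 4 was high for Elac2 (39.0 against 32.0 to 32.8) and low for Ccr7 (1486 against 1688 to 1709.5). DFMO replicate 4 was low for Acss2 (15.1 against 20.7 to 21.6) and Tnf (147 against 187 to 195) and high for Itgb1 (149 against 96.2 to 104). DFMO replicate 3 was high for Samhd1 (136 against 107 to 112), and DFMO replicate 2 for Socs3 (241 against 197 to 204) and Cd5l (52.0 against 44.1 to 45.3). For each of these genes the ctrl and DFMO libraries did not overlap.

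Differences between the Th17n and iTreg responses of wild-type cells passed the test of the difference itself in edgeR for 13 named genes. They were positive for Azin1 (0.71), Sat1 (0.37), Foxp3 (2.20), Ctla4 (1.37), Dusp4 (1.12), Tgm2 (2.32) and Plek (1.84), and negative for Eif5a (-0.54), Ablim1 (-1.22), Crispld2 (-4.04), Cd82 (-1.37), Tspan13 (-1.47) and Ccnd2 (-1.40). Differences between the wild-type and KO responses of Th17n cells passed it for 9: Plbd2 (1.77), Lsm4 (1.35), Kctd13 (2.06), Rnf187 (2.42) and Micu2 (1.64) on the positive side, and Hmgn2 (-0.48), Olfr1033 (-0.98), Ly6g (-4.31) and Plac8 (-2.35) on the negative. All 9 lost the call under some alternative. Hmgn2 lost it in 11, Lsm4, Kctd13, Rnf187 and Plac8 in 3, Plbd2 and Micu2 in 2, and Olfr1033 and Ly6g in 1. The Ly6g value depends on the fitted prior, since 1 of its 4 DFMO libraries in wild type holds no count and the others under 1 CPM.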

How the results depend on the processing

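For DFMO in wild-type Th17n cells, the counts of genes higher and lower stayed within 1.5 times of 2703 and 3290 under all 17 alternatives. They were 2571 and 3119 without the replicate block and 2414 and 2409 on log2(TPM + 1). When 1 library was left out they were 2459 to 2894 higher and 2691 to 3060 lower, with more higher than lower in 3 of those 8 fits. Of 199 named genes 188 kept their call status under every alternative, 9 lost a call under some (Paox in 8, Il17f in 4, Jarid2, Kdm2b, Rrp1b and Tet1 in 3, Npm1 and Sms in 2, Myc in 1), Kdm6b and Mxi1 gained one, and none changed direction; the cause was not tested. Dropping the block changed the call of none of these genes; among named differences from iTreg it ended that of Azin1 (adjusted p = 0.0563). Counts of at least 10 list members moved by over 1.5 times in 37 pairs of list count and alternative, and the lists whose counts lead a paragraph carry their values there.

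For the difference between Th17n and iTreg, total count scaling gave 1364 higher and 376 lower, log2(TPM + 1) 949 and 265, log2(TPM + 0.1) 852 and 161, unfiltered log2(TPM + 1) 838 and 242, and no replicate block 372 and 587. Leaving out 1 library gave 372 to 750 higher and 499 to 733 lower; without iTreg DFMO replicate 3 it was 499 lower, without iTreg ctrl replicate 2 or Th17n DFMO replicate 3 526 each. For the difference between wild type and KO, no replicate block gave 32 higher and 4 lower, only the groups compared 194 and 58, no filter 170 and 62, log2(TPM + 1) 4 and 2, and unfiltered log2(TPM + 1) 3 and 2. On log2(TPM + 0.1) limma called 0 and 0, with 391 and 459 at an unadjusted p under 0.05. Leaving out 1 library gave 17 (without ctrl KO replicate 3) to 91 (without ctrl WT replicate 4) higher and 3 to 11 lower. At the depth, spread and number of these libraries the self-test recovered 44.2% of 1.5-fold changes for DFMO in wild-type Th17n, 16.9% for the difference from iTreg and 15.6% for that from KO. Far fewer genes were changed in it than were called for DFMO in wild-type Th17n or for the difference from iTreg. Its shares therefore do not carry over to those comparisons.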
